A study of Mus musculus with 19 samples.

Results

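Autophagy and lysosome transcripts were examined as a set of 39 genes that covers the pathway from its initiation kinase to the lysosome. The members were taken by symbol from the deposited count table of gastrocnemius, a calf muscle of the mouse: all 39 had a row among its 54176 rows, and all 39 were among the 17028 rows that passed the filter on low counts and were tested. The 19 libraries form 4 groups of FVB mice. mCK-hLPL_REL (5 libraries) carried mCK-hLPL, human lipoprotein lipase (an enzyme that frees fatty acids from circulating triglyceride) driven by the muscle creatine kinase promoter, and had been refed for 24 h. mCK-hLPL_WLM (5 libraries) carried the same transgene and was sampled in weight loss maintenance. WT_REL (4 libraries) was wild type and refed for 24 h, and WT_WLM (5 libraries) was wild type in weight loss maintenance. No group outside weight loss maintenance and refeeding was analysed here. The promoter places the transgene in muscle, and the table has no row for the human gene, so the overexpression itself was not checked. The labels do not say that libraries came from separate animals, and every p-value here speaks of the spread among the 19 libraries, which may be technical. Age and sex are not given in the labels used here.

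Autophagy encloses cytoplasm and organelles in a double membrane, the autophagosome, which then fuses with a lysosome whose hydrolases break down the cargo. The ULK1 kinase complex starts the process, a class III phosphatidylinositol 3-kinase marks the site with PI3P, and conjugation enzymes attach ATG8 proteins (the LC3 and GABARAP families) to the membrane. Receptors then tie cargo to those ATG8 proteins. In skeletal muscle the pathway is known to be raised by fasting through FOXO and TFEB transcription factors and held back by mTORC1 after feeding, and transcripts are only one layer of its control.

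Total counts were 35595030 to 50558640 in mCK-hLPL_REL, 44154004 to 49324746 in mCK-hLPL_WLM, 36255174 to 49025261 in WT_REL and 37444398 to 51073355 in WT_WLM. Single members had between 157 counts (Atg10) and 23802 counts (Sqstm1) in a library. The muscle label was borne out by its markers: the summed level of 10 skeletal muscle markers was 92200 to 133000 CPM (counts scaled to library size) in mCK-hLPL_REL, 116000 to 133000 in mCK-hLPL_WLM, 91500 to 131000 in WT_REL and 119000 to 146000 in WT_WLM. Red cell markers reached 11700 CPM in mCK-hLPL_REL, 3110 in mCK-hLPL_WLM, 4490 in WT_REL and 1700 in WT_WLM. Lymph node markers reached 3.59 CPM in mCK-hLPL_REL, 41.7 in mCK-hLPL_WLM, 1.07 in WT_REL and 53 in WT_WLM. Liver markers reached 227 CPM in mCK-hLPL_REL, 61.1 in mCK-hLPL_WLM, 210 in WT_REL and 61.3 in WT_WLM. No marker of these 4 lists was at 0 in every library of a group, and the part of red cells in the results on members was not tested. The libraries are bulk tissue, in which fewer cells of a type and less RNA per cell cannot be told apart.

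The members spanned a wide range of abundance. Scaled to the length of their exons, the levels ran from 181.6 CPM per kb for Map1lc3a, which encodes LC3A, to 0.9014 CPM per kb for Pik3r4, the regulatory subunit VPS15 of the PI3P kinase, as means over all 19 libraries. The lysosomal membrane protein gene Lamp1 was second at 139.8 CPM per kb, and the cargo receptor gene Sqstm1, which encodes p62, followed at 112.9 CPM per kb. Next came Bnip3, a receptor for mitochondria, at 70.96 CPM per kb and Gabarap at 68.19 CPM per kb. Among the ATG8 genes, Gabarapl2 at 20.83 and Gabarapl1 at 20.24 CPM per kb differed by less than their SD over libraries, and Map1lc3b, which encodes LC3B, was at 17.21 CPM per kb. The length was that of all annotated exons merged (7517 bases for Map1lc3b, 2013 for Gabarapl1), and the order depends on it. In CPM the group means of Map1lc3b were 118 to 138, above those of Gabarapl1 (35.1 to 44.8) and Gabarapl2 (45.6 to 51.2). The spread between libraries of a group, averaged over the 4 groups, had a coefficient of variation of 5.16% to 17.1% with a median of 8.48%, and it was highest for Ulk1.

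**Figure D1:**
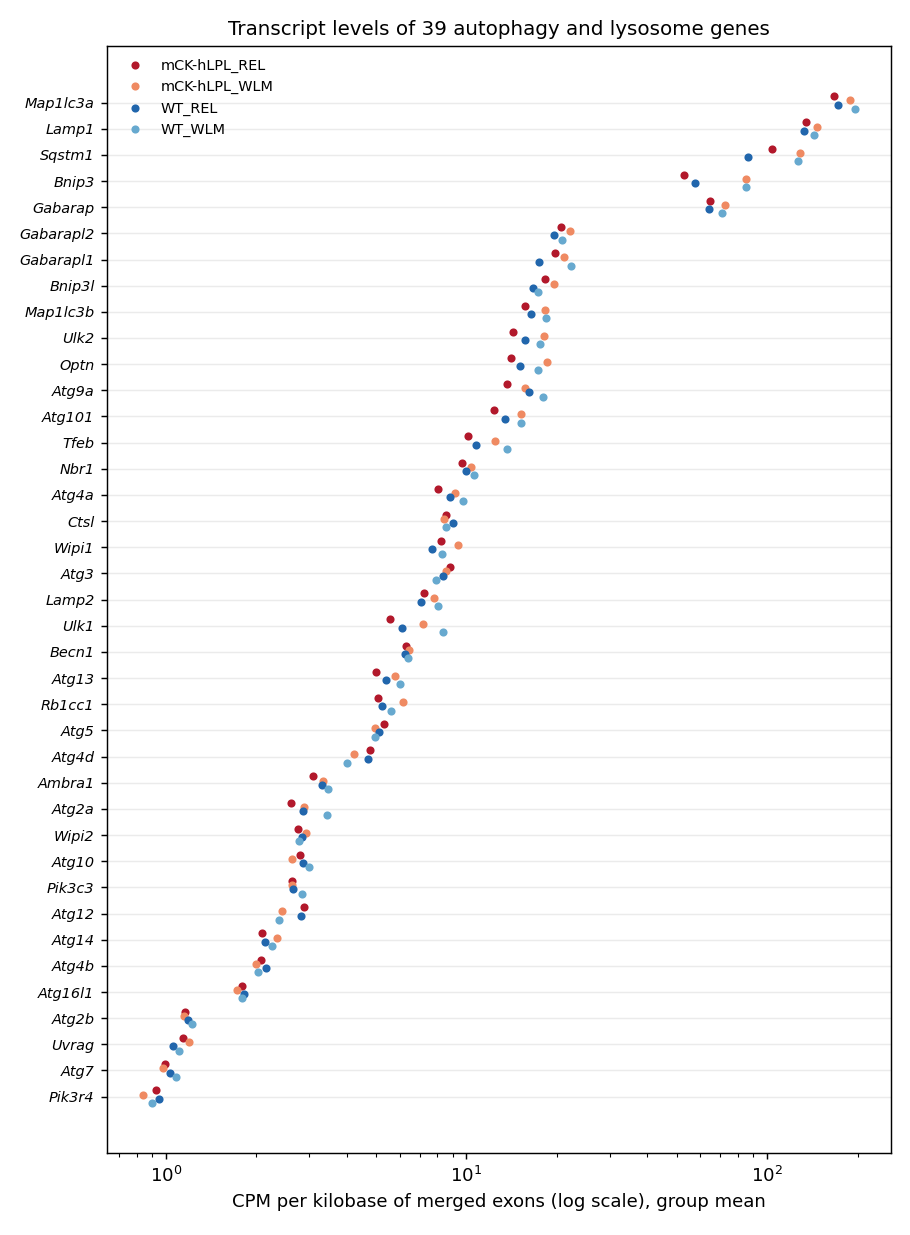
Group means of the 39 members in CPM per kilobase of merged exons (log axis), ordered by the mean over all libraries, with 1 point for each of the 4 groups. Map1lc3a, Lamp1 and Sqstm1 lie at the top and Pik3r4 at the bottom, and the largest gaps between the refed (dark) and weight loss maintenance (light) points near the top are those of Bnip3 and Sqstm1.

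After 24 h of refeeding, more members of the set had fallen than risen relative to weight loss maintenance. Averaged over the genotypes, 10 fell and 2 rose at an adjusted p under 0.05 (edgeR quasi-likelihood test, Benjamini-Hochberg over all genes tested). The 12 called members are 30.8% of the 39, against 20.7% of all genes tested. The share that fell was 25.6% of members against 9.98% of all genes, and the share that rose was 5.13% of members against 10.7% of all genes. The median log2 difference, REL minus WLM, was -0.12 over the members and 0.00 over all genes, and 30 members had a negative difference (76.9%, against 49.8% of all genes). The members that fell were the cargo receptors Bnip3, Sqstm1 and Optn, the transcription factor Tfeb, the initiation genes Ulk1, Rb1cc1, Atg101 and Atg13, and the ATG8 genes Map1lc3b and Gabarapl1. The members that rose were Atg12 and Atg4d, both of the conjugation machinery.

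Within mCK-hLPL muscle, 4 members fell (Bnip3, Optn, Rb1cc1 and Tfeb) and 1 rose (Atg12), which is 12.8% of members against 8.15% of all genes tested (4.03% lower and 4.11% higher). Within WT muscle, 3 members fell (Bnip3, Sqstm1 and Tfeb) and none rose, which is 7.69% of members against 4.88% of all genes (2.25% lower and 2.63% higher). The averaged comparison uses the libraries of both genotypes, so it is no separate evidence. The median log2 difference was -0.11 in mCK-hLPL and -0.10 in WT. The difference was negative in both genotypes for 27 members and positive in both for 8, and the signs were opposite for Atg10, Atg2b, Atg7 and Wipi2, none of which passed the test. By ranges, the REL and WLM libraries did not overlap for 4 members in mCK-hLPL (Atg12, Map1lc3b, Optn and Bnip3, 10.3% of members against 6.57% of all genes). In WT they did not overlap for 5 (Ulk1, Gabarapl1, Sqstm1, Bnip3 and Tfeb, 12.8% of members against 10.1% of all genes).

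**Figure D2:**
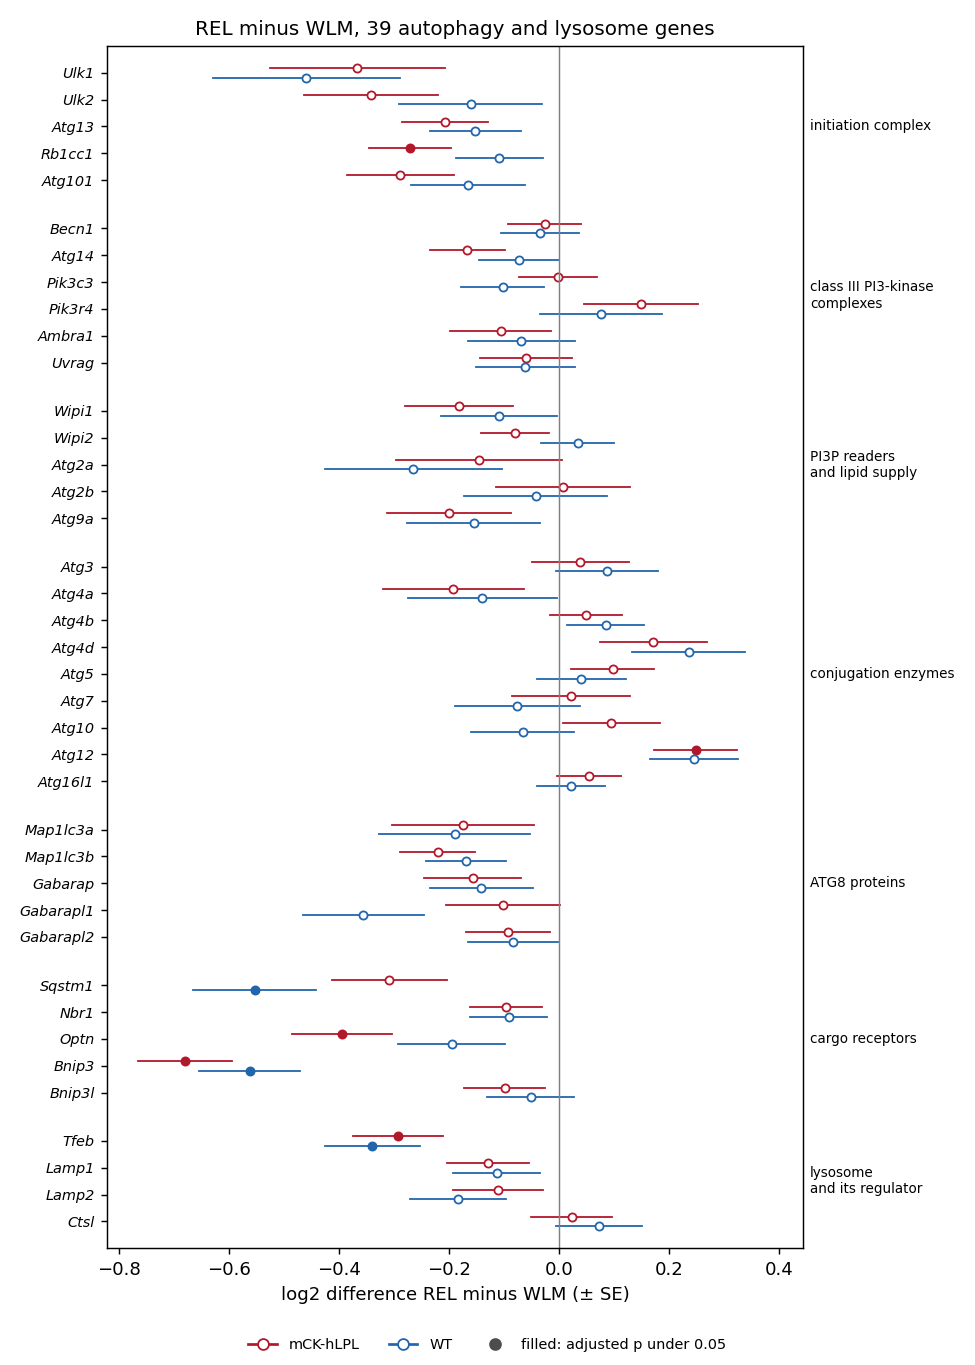
Log2 difference REL minus WLM for each of the 39 members, grouped by role, in mCK-hLPL (red) and in WT (blue), with bars of 1 SE. Filled points passed an adjusted p of 0.05. Most points lie left of 0, Bnip3 lies farthest left at -0.68 in mCK-hLPL and -0.56 in WT, and most conjugation enzymes lie right of 0.

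In the initiation complex, 4 of the 5 members fell in the averaged comparison (against 9.98% of all genes lower) and all 5 differences were negative (against 49.8% of all genes; median -0.23, range -0.41 to -0.18). Ulk1, the kinase that starts autophagosome formation (chromosome 5, 110784488 to 110810097, minus strand, GRCm38), was at 48, 38.7, 37.8, 33 and 22.4 CPM in mCK-hLPL_REL and at 44.5, 40.8, 40.8, 41.4 and 64.4 CPM in mCK-hLPL_WLM. In WT_REL it was at 39, 40.8, 44.4 and 33.7 CPM, against 59.6, 46.7, 53.6, 58.4 and 53.2 CPM in WT_WLM. All 4 refed WT libraries lay below all 5 WT_WLM libraries, whereas the mCK-hLPL groups overlapped, with 1 low library in REL and 1 high library in WLM. The averaged log2 difference of Ulk1 was -0.41 ± 0.12 (SE, edgeR adjusted p = 0.0167), and neither genotype alone passed (adjusted p = 0.16 in mCK-hLPL and 0.123 in WT). Ulk2, its paralog, had an averaged difference of -0.25 ± 0.09 and did not pass (edgeR adjusted p = 0.0519).

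Rb1cc1 encodes FIP200, the scaffold of the complex. It was at 76.6, 70.7, 72.4, 83.1 and 71.2 CPM in mCK-hLPL_REL and at 80.2, 95, 92.5, 87.4 and 96.1 CPM in mCK-hLPL_WLM. The WT_REL libraries had 74, 78.9, 78.9 and 74.6 CPM, against 75.7, 80.0, 82.8, 97.5 and 77.2 CPM in WT_WLM. In mCK-hLPL only the highest refed library reached into the WLM range, and in WT a single WLM library stood above the rest. REL minus WLM, the difference in log2 was -0.27 ± 0.07 in mCK-hLPL (SE, edgeR adjusted p = 0.0322), -0.11 in WT (adjusted p = 0.471) and -0.19 ± 0.05 averaged (adjusted p = 0.0186). The call within mCK-hLPL was lost when mCK-hLPL_REL 2, 3 or 5 or mCK-hLPL_WLM 2, 3 or 5 was left out, with an adjusted p of up to 0.0953.

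Atg101 and Atg13 encode the partner proteins that hold the complex together. Atg101 was at 17.9, 17.9, 19.4, 21.5 and 22.3 CPM in mCK-hLPL_REL and at 24.2, 26.5, 21.3, 26.4 and 22.5 CPM in mCK-hLPL_WLM. Its WT_REL libraries had 22.6, 22.2, 20.5 and 20.8 CPM, against 19.2, 22.9, 29, 26 and 23.6 CPM in WT_WLM. The ranges overlapped in both genotypes, and in WT the lowest library of all was a WLM one. Atg13 was at 25.4, 21.3, 22.6, 22.3 and 17.9 CPM in mCK-hLPL_REL, against 24.7, 25.1, 25.6, 23.3 and 27.6 CPM in mCK-hLPL_WLM. In WT it was at 22.6, 24, 25.1 and 22.5 CPM in REL, against 27.3, 24.4, 26.5, 28.1 and 24.5 CPM in WLM. Overlap was present in both genotypes for Atg13 too. The averaged log2 differences were -0.23 ± 0.07 for Atg101 (SE, edgeR adjusted p = 0.0293) and -0.18 ± 0.06 for Atg13 (adjusted p = 0.031). The Atg101 call was lost without WT_WLM 3 or 4, mCK-hLPL_WLM 2, WT_REL A or B, or mCK-hLPL_REL 1, 2 or 3 (adjusted p up to 0.0685). The Atg13 call was lost without WT_WLM 1, 3 or 4, mCK-hLPL_WLM 3 or 5, WT_REL 1 or B, or mCK-hLPL_REL 2 (adjusted p up to 0.0721). Without the filter on low counts, the averaged calls of Rb1cc1, Atg101 and Atg13 were all lost (adjusted p = 0.0625, 0.0626 and 0.0794 in that order), and that of Ulk1 held.

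None of the 6 genes of the class III PI3-kinase complexes passed in any refeeding comparison. The same held for the 5 genes of the PI3P readers and lipid supply. Of all genes, 20.7% passed averaged over genotypes, 8.15% within mCK-hLPL and 4.88% within WT. With so few genes, the absence of calls does not set these roles apart from all genes. The kinase genes had a median averaged log2 difference of -0.06 and a range of -0.12 to 0.11. Becn1, the core subunit that binds the kinase, was at -0.03 ± 0.05 (edgeR adjusted p = 0.698), and Atg14, which directs the complex to the autophagosome site, was at -0.12 ± 0.05 (adjusted p = 0.096). Among the PI3P readers and lipid suppliers the range was -0.20 to -0.02, with Atg9a, the membrane protein of the seed vesicles, at -0.18 ± 0.08 (adjusted p = 0.137).

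The conjugation enzymes were the role in which positive differences prevailed, with 7 of 9 above 0 (against all genes, of which 49.8% were below 0), a median of 0.06 and 2 members called higher (against 10.7% of all genes). Atg12, the ubiquitin-like protein that is joined to ATG5 (chromosome 18, 46730144 to 46741580, minus strand), was at 20.8, 21, 21.2, 24.1 and 24.1 CPM in mCK-hLPL_REL and at 19.7, 18.2, 20.5, 17.1 and 18.2 CPM in mCK-hLPL_WLM. It was at 24.1, 23.1, 19.6 and 20.2 CPM in WT_REL, against 17.6, 20.03, 17, 19.1 and 17.9 CPM in WT_WLM. The mCK-hLPL groups were separate by a narrow gap, and in WT only the lowest refed library dipped into the WLM range. On the log2 scale the difference was 0.25 ± 0.08 in mCK-hLPL (SE, edgeR adjusted p = 0.0483), 0.25 in WT (adjusted p = 0.0822) and 0.25 ± 0.05 averaged (adjusted p = 0.00401). The call within mCK-hLPL was held without mCK-hLPL_WLM 1 or mCK-hLPL_REL 1 and lost without any one of the other 17 libraries (adjusted p up to 0.114), whereas the averaged call held without any one of the 19.

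Atg4d, a protease that trims ATG8 proteins, was at 31.4, 31, 31.1, 38.4 and 41 CPM in mCK-hLPL_REL and at 29.6, 31.8, 32.8, 26.7 and 32.6 CPM in mCK-hLPL_WLM. In WT_REL it was at 33.2, 36.2, 32.4 and 34.9 CPM, against 29.7, 29.7, 26.4, 34.6 and 24.7 CPM in WT_WLM. The groups overlapped in both genotypes, and 2 refed mCK-hLPL libraries stood above all others. The averaged log2 difference was 0.20 ± 0.07 (SE, edgeR adjusted p = 0.0476). The call held without WT_WLM 4 or mCK-hLPL_REL 1, 2 or 3 and was lost without any one of the other 15 libraries (adjusted p up to 0.0926), and also with RLE scaling (adjusted p = 0.0557) and upper-quartile scaling (adjusted p = 0.0568), and without the filter on low counts (adjusted p = 0.0763). Of its paralogs, Atg4b was at 0.07 ± 0.05 (edgeR adjusted p = 0.35) and Atg4a at -0.17 ± 0.09 (adjusted p = 0.221). ATG5 and ATG16L1, the partners of ATG12, had averaged differences of 0.07 (Atg5) and 0.04 (Atg16l1) at the transcript level and were not called.

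All 5 ATG8 genes had negative differences in both genotypes (against 48.4% of all genes in mCK-hLPL and 50.4% in WT). Map1lc3b and Gabarapl1 were called in the averaged comparison (against 9.98% of all genes lower). Map1lc3b, whose protein is the usual marker of autophagosomes, was at 119, 104, 111, 128 and 126 CPM in mCK-hLPL_REL and at 132, 137, 138, 139 and 139 CPM in mCK-hLPL_WLM. The WT_REL libraries had 120.5, 124, 132 and 116 CPM, against 138, 136, 152, 143 and 124 CPM in WT_WLM. The refed mCK-hLPL libraries all lay under the tightly grouped WLM libraries, while the WT groups overlapped. For Map1lc3b, the log2 difference was -0.22 in mCK-hLPL (edgeR adjusted p = 0.0526), -0.17 in WT (adjusted p = 0.19) and -0.20 ± 0.05 averaged (SE, adjusted p = 0.00976).

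Gabarapl1 was at 37.2, 42.7, 34.9, 38.3 and 44.5 CPM in mCK-hLPL_REL and at 46.5, 35.9, 38.3, 47.1 and 44.3 CPM in mCK-hLPL_WLM. WT_REL libraries had 34, 34.8, 37 and 34.4 CPM, against 57.4, 44, 44.2, 41.1 and 37.5 CPM in WT_WLM. The mCK-hLPL groups overlapped almost wholly, and the WT groups were separate by a small gap with 1 high WLM library. The averaged log2 difference was -0.23 ± 0.08 (SE, edgeR adjusted p = 0.0377). The call was lost without WT_WLM 1 or 3, mCK-hLPL_WLM 1, 4 or 5, WT_REL 1, 2 or B, or mCK-hLPL_REL 1, 3 or 4 (adjusted p up to 0.0789), and without the filter on low counts (adjusted p = 0.0801). The other ATG8 genes did not pass, with averaged differences of -0.18 ± 0.09 for Map1lc3a, -0.15 ± 0.06 for Gabarap and -0.09 ± 0.06 for Gabarapl2 (edgeR adjusted p = 0.181, 0.106 and 0.284 in that order).

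**Figure D3:**
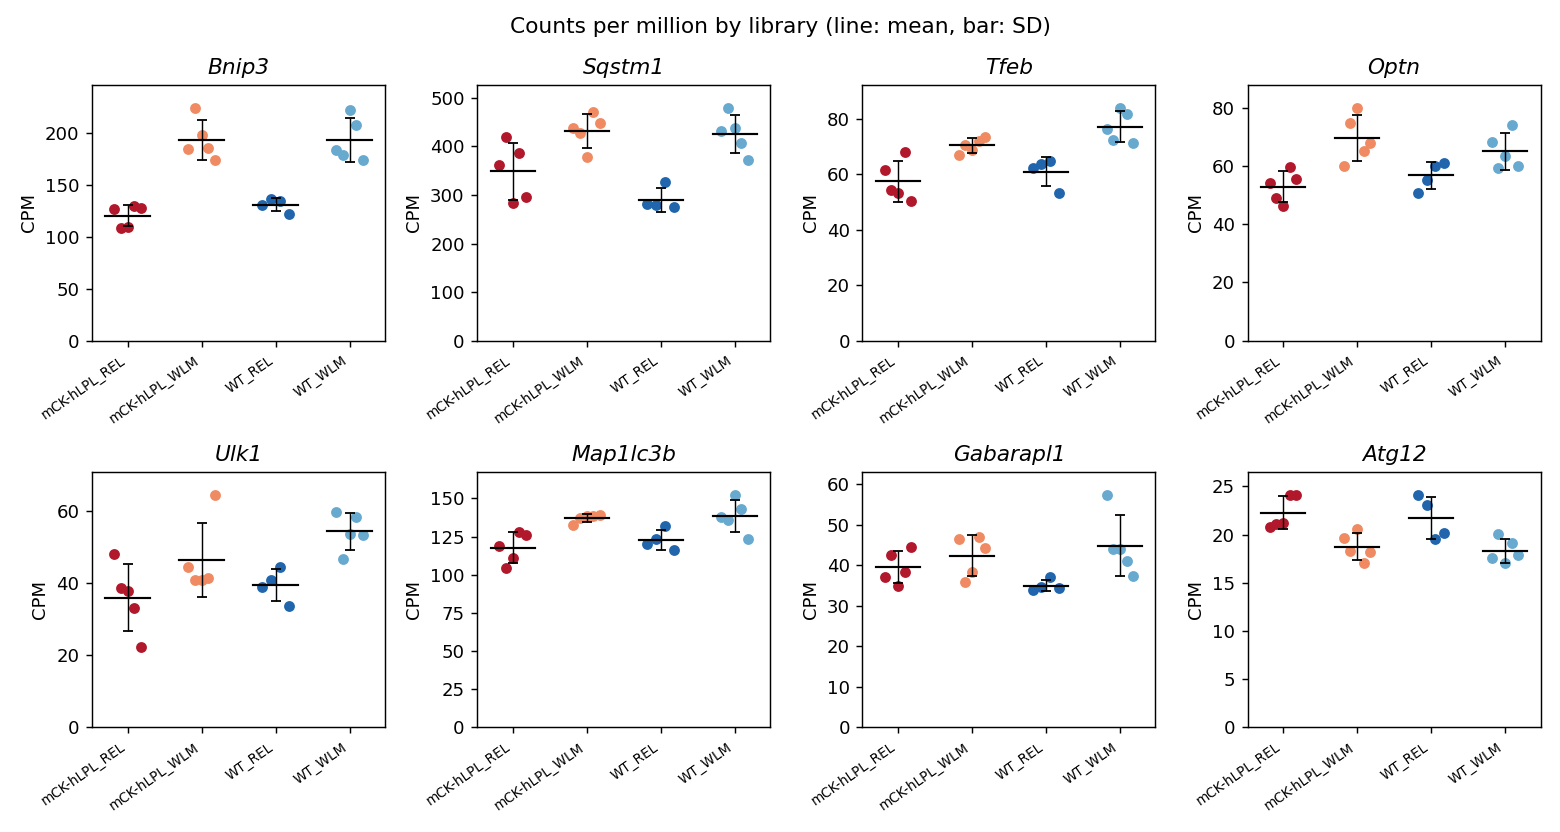
CPM of 8 called members in each library of the 4 groups (points), with the group mean (line) and SD (bar). Every refed Bnip3 point, 108 to 136 CPM, lies below every weight loss maintenance point, 174 to 223 CPM, and the same holds within WT for Sqstm1, Tfeb, Ulk1 and Gabarapl1.

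Among the cargo receptors, Bnip3 and Sqstm1 held the largest averaged differences of the 39 members. Of the 5 receptors 3 were called lower (against 9.98% of all genes), with a median averaged log2 difference of -0.30. Bnip3, an outer membrane protein of mitochondria that recruits LC3 (chromosome 7, 138890836 to 138909519, minus strand), was at 127, 108, 109.5, 129 and 127 CPM in mCK-hLPL_REL and at 184, 223, 197, 185 and 174 CPM in mCK-hLPL_WLM. In WT_REL it was at 130.4, 136, 134 and 122 CPM, against 183, 179, 222, 208 and 174 CPM in WT_WLM. All 9 refed libraries lay below all 10 WLM libraries; Bnip3 was the single member for which this held over both genotypes (2.56% of members against 1.81% of all genes). The log2 difference was -0.68 ± 0.09 in mCK-hLPL (SE, edgeR adjusted p = 0.000294) and -0.56 ± 0.09 in WT (adjusted p = 0.00203). Averaged over genotypes it was -0.62 ± 0.06 (adjusted p = 5.23e-06), so that refed muscle had 0.65 times the level of weight loss maintenance. Its paralog Bnip3l, which encodes the receptor NIX, had an averaged difference of -0.08 ± 0.05 and did not pass (edgeR adjusted p = 0.347).

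The transcription factors TFEB and FOXO bind known DNA words, and promoters were searched for them on both strands: CACGTG (the E-box), TCACGTGA (the longer TFEB word, which contains CACGTG) and GTAAACA or its reverse complement TGTTTAC (a FOXO word). The window was the 250 bases before each RefSeq gene start on GRCm38.p6, in which 32 of the 39 members had an entry. Those without an entry were Atg12, Rb1cc1, Becn1, Pik3c3, Atg16l1, Map1lc3a and Bnip3l. Among them, Atg12 and Rb1cc1 were called for refeeding, so the search does not cover every called member. CACGTG occurred in 6 members (18.8% of the 32, against 6.86% of 27018 genes): Atg3, Atg5, Atg7, Bnip3, Ctsl and Lamp1. The windows of Atg7 and Ctsl lie inside the gene as annotated by GENCODE, so their matches are not upstream of its start. TCACGTGA occurred in Atg3 alone (3.12% against 0.907% of genes), and the FOXO word in no member (against 3.54% of genes). Of the 6 members with CACGTG, only Bnip3 was called in the averaged refeeding comparison, against 20.7% of all genes. With so few members, this does not set those with the word apart from all genes. The uncalled ones were not shown to be unchanged. The promoter of Bnip3 is printed as that of the called member with a match, beside those of Lamp1 and Atg3. The latter were chosen, after their values were seen, as members with several matches that were not called. Capitals mark the matches, bases inside the annotated gene are left out, and each is written 5′ to 3′ on the strand of its gene: Bnip3 from chr7:138909520-138909756 (minus strand), Lamp1 from chr8:13158911-13159160 (plus strand) and Atg3 from chr16:45158579-45158784 (plus strand).
Bnip3: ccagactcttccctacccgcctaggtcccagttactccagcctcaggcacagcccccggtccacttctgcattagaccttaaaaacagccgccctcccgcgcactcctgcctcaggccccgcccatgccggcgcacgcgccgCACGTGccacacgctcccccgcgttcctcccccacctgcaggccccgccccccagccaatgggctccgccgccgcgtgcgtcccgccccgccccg
Lamp1: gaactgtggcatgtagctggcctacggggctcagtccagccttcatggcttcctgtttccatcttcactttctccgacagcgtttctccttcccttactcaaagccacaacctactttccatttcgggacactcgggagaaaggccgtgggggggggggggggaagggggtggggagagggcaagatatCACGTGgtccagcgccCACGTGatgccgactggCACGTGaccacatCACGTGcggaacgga
Atg3: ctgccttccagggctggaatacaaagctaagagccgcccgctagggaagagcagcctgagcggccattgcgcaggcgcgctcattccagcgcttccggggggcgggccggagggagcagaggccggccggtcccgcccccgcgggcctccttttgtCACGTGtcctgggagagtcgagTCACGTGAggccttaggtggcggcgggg
The single Bnip3 match starts 108 bases before the RefSeq gene start, and Lamp1 holds 4 matches. That start lies inside the gene as annotated by GENCODE, so the printed Bnip3 stretch ends short of it. A match is a word in a window and shows no binding.

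Sqstm1, the receptor for ubiquitin-tagged cargo (chromosome 11, 50199366 to 50210827, minus strand), was at 362, 419, 283, 386 and 295 CPM in mCK-hLPL_REL and at 439, 427, 377, 470.4 and 449 CPM in mCK-hLPL_WLM. In WT_REL it was at 281, 279, 326 and 275 CPM, against 433, 479, 439, 408 and 371 CPM in WT_WLM. The WT groups were separate, while 2 refed mCK-hLPL libraries reached into the WLM range. On the log2 scale Sqstm1 differed by -0.55 ± 0.11 in WT (SE, edgeR adjusted p = 0.00892), -0.31 ± 0.10 in mCK-hLPL (adjusted p = 0.0722) and -0.43 ± 0.08 averaged (adjusted p = 0.000717). The difference between genotypes in this response, mCK-hLPL minus WT, was 0.24 (unadjusted p = 0.125 in the edgeR interaction test, adjusted p = 1), so the response was not shown to differ.

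Optn encodes optineurin, a receptor for damaged mitochondria and bacteria (chromosome 2, 5020642 to 5064051, minus strand). It was at 54.2, 48.9, 46.1, 59.5 and 55.4 CPM in mCK-hLPL_REL and at 59.8, 74.6, 79.8, 65.3 and 67.8 CPM in mCK-hLPL_WLM. WT_REL libraries had 50.8, 55.1, 59.9 and 61.1 CPM, against 68.2, 59.2, 63.2, 74.2 and 59.9 CPM in WT_WLM. The mCK-hLPL groups just failed to meet, and the WT groups overlapped. The difference in log2 was -0.39 ± 0.09 in mCK-hLPL (SE, edgeR adjusted p = 0.0132), -0.20 in WT (adjusted p = 0.261) and -0.30 ± 0.07 averaged (adjusted p = 0.00433). Nbr1, a receptor that works beside p62, was at -0.09 ± 0.05 averaged and did not pass (adjusted p = 0.175).

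Of the 4 members in the role of the lysosome and its regulator, only Tfeb was called, against 20.7% of all genes in the averaged comparison. With so few members, this does not set the role apart from all genes. Tfeb, a transcription factor of lysosome and autophagy genes (chromosome 17, 47737030 to 47792419, plus strand), was at 61.5, 54.3, 53.3, 68.2 and 50.2 CPM in mCK-hLPL_REL and at 67, 70.6, 69, 72.2 and 73.5 CPM in mCK-hLPL_WLM. Levels in WT_REL were 62.3, 63.7, 64.8 and 53.2 CPM, against 76.4, 72.5, 83.9, 81.7 and 71.4 CPM in WT_WLM. The WT groups were separate, and in mCK-hLPL 1 refed library lay inside the WLM range. The log2 difference was -0.29 ± 0.08 in mCK-hLPL (SE, edgeR adjusted p = 0.0332), -0.34 ± 0.09 in WT (adjusted p = 0.0306) and -0.32 ± 0.06 averaged (adjusted p = 0.00113). The averaged call held without any one library. The call within mCK-hLPL was lost without mCK-hLPL_WLM 2, 3, 4 or 5, WT_REL 1, or mCK-hLPL_REL 2, 3 or 5 (adjusted p up to 0.093), and the call within WT without WT_WLM 1, 3 or 4 or WT_REL 1, 2 or B (adjusted p up to 0.13).

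The other genes of that role did not pass. Lamp1 and Lamp2, the main glycoproteins of the lysosomal membrane, had averaged log2 differences of -0.12 ± 0.05 and -0.15 ± 0.06 (edgeR adjusted p = 0.119 and 0.0872). Ctsl, the lysosomal protease cathepsin L, was at 0.05 ± 0.05 (adjusted p = 0.578).

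Some markers of muscle and of other cell types were called in the refeeding comparison. Averaged over genotypes, 4 of 10 skeletal muscle markers fell (against 9.98% of all genes) and 1 rose (against 10.7%), with a median log2 difference of -0.16. Those that fell were Myh4 (-0.44), Myh1 (-0.43), Mb (-0.31) and Myoz1 (-0.29), and Casq1 rose (0.23), while Acta1 and Ckm did not pass. The 3 libraries with the lowest muscle marker sums were WT_REL B and mCK-hLPL_REL 2 and 3. With these 3 left out, an alternative chosen after the data were seen, 6 members were called in the averaged comparison (against 10.3% of all genes): Bnip3, Sqstm1, Optn, Tfeb, Atg12 and Atg4d. Map1lc3b, Ulk1, Rb1cc1, Atg101, Atg13 and Gabarapl1 were then no longer called (edgeR adjusted p between 0.0732 and 0.177). The part of muscle content in these results was otherwise not tested.

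Markers of other cell types were called in the same averaged comparison, in which 10.7% of all genes were higher and 9.98% lower. Red cell markers rose in 7 of 7 tested (median log2 difference 1.42), fibroblast markers in 4 of 6 (median 0.89) and liver markers in 3 of 10 (median 1.77), with none lower in these lists. Of 6 endothelial markers 3 rose and 1 fell (median 0.25), and of 7 fat cell markers 1 rose (median -0.01). Lymph node markers fell in 8 of 8 tested (median -4.07). The 3 highest libraries were WT_WLM 5 (summed level 53 CPM), WT_WLM 1 (48 CPM) and mCK-hLPL_WLM 3 (41.7 CPM). The remaining WLM libraries were at 0.344 to 1.61 CPM, against 0.405 to 3.59 CPM in the refed libraries. The median sum was lower in mCK-hLPL_WLM (0.718 CPM) than in mCK-hLPL_REL (0.926), and higher in WT_WLM (1.61) than in WT_REL (0.46). Whether these markers fell outside those 3 libraries was not tested. The summed fibroblast markers were 781 to 1350 CPM in mCK-hLPL_REL, 382 to 875 in mCK-hLPL_WLM, 517 to 1270 in WT_REL and 294 to 954 in WT_WLM. Summed endothelial markers were 186 to 240 CPM in mCK-hLPL_REL, 147 to 212 in mCK-hLPL_WLM, 173 to 232 in WT_REL and 161 to 225 in WT_WLM. No fibroblast, endothelial or fat cell marker was at 0 in every library of a group. Without the 3 libraries highest in lymph node markers 10 members were called (against 15.6% of all genes), with Atg13 and Atg4d lost. Without the 3 highest in liver markers (mCK-hLPL_REL 4 and 5 and WT_REL B) 11 were called (against 16.5% of all genes): Ulk1, Atg13, Atg4d and Gabarapl1 were lost, and Map1lc3a, Gabarapl2 and Lamp1 passed. Both alternatives were chosen after the data were seen, and the part of fibroblasts and endothelial cells was not tested.

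Between the genotypes, no autophagy or lysosome member was called in either phase. In REL, mCK-hLPL minus WT, 0 of the 39 members passed (edgeR, against 0.0117% of all genes), with 1 member at an unadjusted p under 0.05 and 0 called by DESeq2. In WLM 0 passed (against 0.0294% of all genes), with 2 at an unadjusted p under 0.05 and 0 called by DESeq2. Averaged over the phases 0 passed (against 0.211% of all genes), with 2 at an unadjusted p under 0.05 and 0 called by DESeq2. No member had libraries that did not overlap between the genotypes, in REL (1.43% of all genes), in WLM (0.799%) or over both phases (0.0411%). The interaction, which asks whether refeeding acted differently in mCK-hLPL than in WT, gave 0 members (against 0% of all genes), 0 at an unadjusted p under 0.05 and 0 by DESeq2.

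The size of difference left by these data can be bounded for each member singly. The 95% intervals of all 39 members lay within a 1.5-fold change in either direction, in REL, in WLM, averaged and in the interaction. These intervals were not adjusted for the number of members or comparisons, so they do not bound all members jointly. In REL the extremes were -0.49 for Ulk1 and Atg9a and 0.5 for Sqstm1 on the log2 scale. In WLM they were -0.57 for Atg2a and 0.38 for Wipi1. In the interaction they were -0.55 for Ulk2 and 0.58 for Ulk1 and Atg2a. The median log2 difference of the members was -0.03 in REL and -0.01 in WLM, and 19 members were lower in both phases, 11 higher in both and 9 of opposite sign. Ranges of this kind do not show that the genotypes were equal.

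The smallest p of a genotype comparison belonged to Sqstm1 in REL, to Bnip3l in WLM and to Bnip3l averaged. Sqstm1, with the values given above, averaged 349 ± 58.3 CPM in mCK-hLPL_REL (SD, n = 5) and 290.2 ± 24.3 CPM in WT_REL (n = 4). The log2 difference was 0.27 ± 0.11 (95% interval 0.03 to 0.50, unadjusted p = 0.0269, edgeR adjusted p = 1), and the lowest mCK-hLPL_REL libraries lay among the WT_REL libraries. In WLM the corresponding difference of Sqstm1 was 0.02.

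Bnip3l was at 78.8, 66.9, 65.4, 70.6 and 70.7 CPM in mCK-hLPL_REL and at 63.1, 63.6, 60.3 and 70.6 CPM in WT_REL. In mCK-hLPL_WLM it was at 75.4, 83.5, 77.7, 69 and 71.9 CPM, against 65, 68.8, 69.3, 72.6 and 58.1 CPM in WT_WLM. The mCK-hLPL libraries tended to the upper end in both phases and overlapped the WT libraries in each. The log2 difference was 0.18 ± 0.07 in WLM (95% interval 0.02 to 0.33, unadjusted p = 0.0274, edgeR adjusted p = 0.942) and 0.15 ± 0.05 averaged (0.04 to 0.27, unadjusted p = 0.0105, adjusted p = 0.527). The smallest p of the interaction was that of Gabarapl1, at 0.25 ± 0.15 (95% interval -0.06 to 0.57, unadjusted p = 0.109, edgeR adjusted p = 1).

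**Figure D4:**
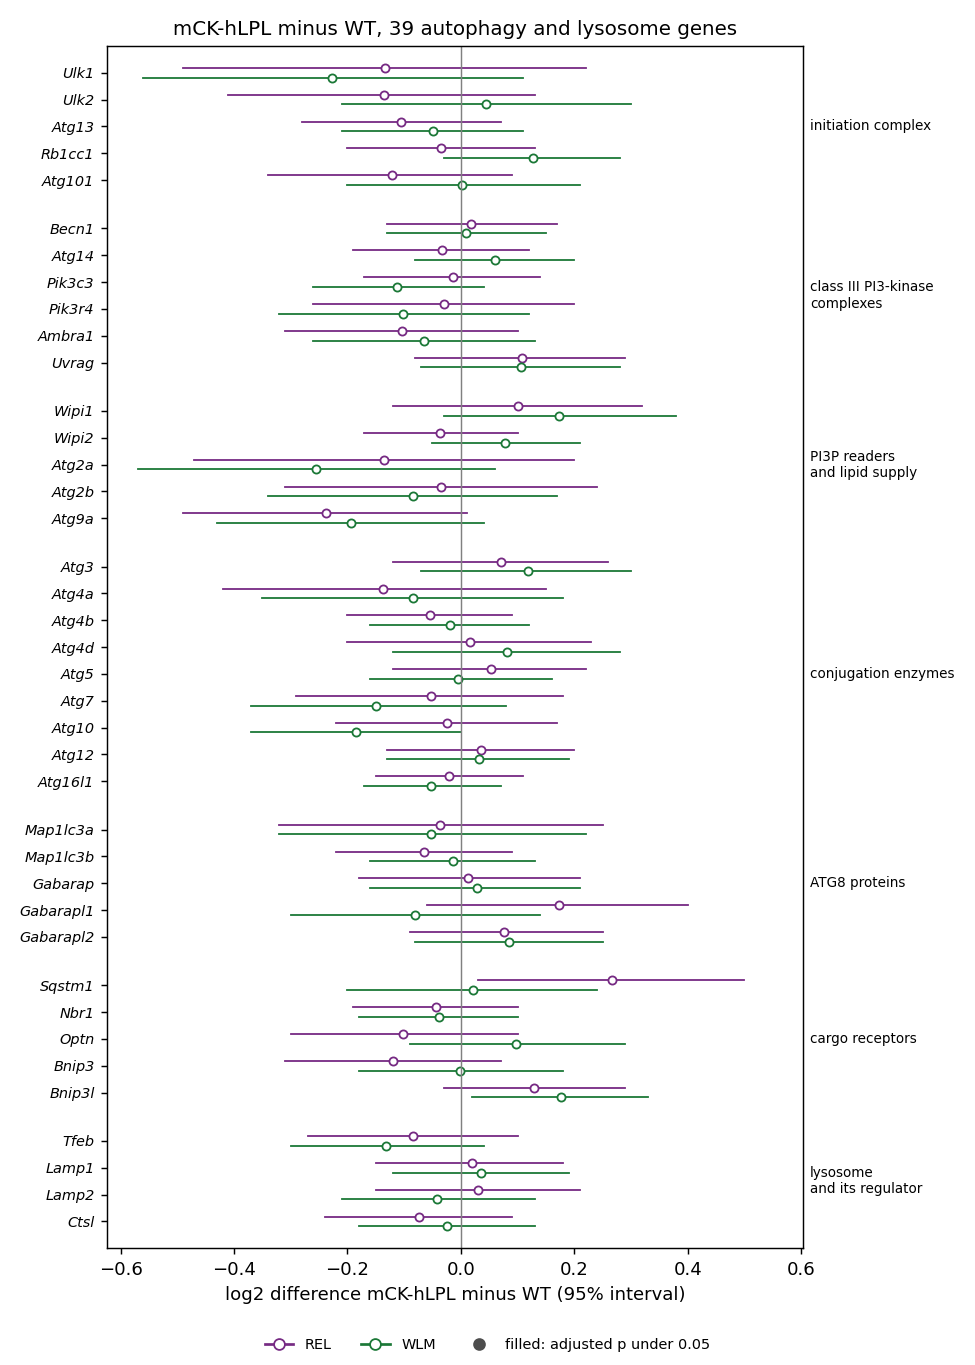
Log2 difference mCK-hLPL minus WT for each of the 39 members, grouped by role, in REL (purple) and in WLM (green), with 95% intervals. No point is filled, since none passed an adjusted p of 0.05, and nearly all intervals cross 0; Sqstm1 in REL (0.03 to 0.50) and Bnip3l in WLM (0.02 to 0.33) lie to the right of it, and Atg10 in WLM just to its left.

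The surrounding pathway was described with 5 further gene lists, in which the averaged refeeding counts can be set against 10.7% of all genes higher and 9.98% lower. The shares of all genes were 4.11% higher and 4.03% lower within mCK-hLPL, and 2.63% higher and 2.25% lower within WT. In a list of other autophagy machinery, receptors and fusion genes, 11 of 38 fell (28.9%) and 2 rose (5.26%), with a median log2 difference of -0.10. Retreg1, a receptor for the endoplasmic reticulum also called FAM134B, fell by 0.71 on the log2 scale (SE 0.07, edgeR adjusted p = 5.23e-06). Ccpg1, another receptor for the endoplasmic reticulum, fell by 0.32 and Calcoco1, likewise a receptor of that organelle, fell by 0.39 (adjusted p = 0.000447 and 0.000475). Tmem41b, a lipid scramblase needed for autophagosome growth, rose by 0.36 (adjusted p = 0.000202). Within mCK-hLPL, 8 fell (21.1%) and 1 rose (2.63%). Within WT, 2 fell (5.26%) and 1 rose (2.63%).

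Upstream transcription factors and kinases moved both ways, with 6 of 23 lower (26.1%), 3 higher (13%) and a median of -0.07. Foxo3 and Foxo4, members of the FOXO family that activates autophagy genes in fasted muscle, fell by 0.54 and 0.39 on the log2 scale (edgeR adjusted p = 0.000961 and 0.00501). Foxo6 of the same family rose by 1.06 ± 0.14 (SE, adjusted p = 5e-05), and Prkag3, the muscle gamma subunit of the energy sensor AMPK, rose by 0.34 (adjusted p = 0.00465). Within mCK-hLPL 3 fell (13%) and 1 rose (4.35%), and within WT 1 fell (4.35%) and 2 rose (8.7%).

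Of 35 genes of mTORC1 and lysosomal nutrient sensing, 5 fell (14.3%) and 3 rose (8.57%), shares near those of all genes, with a median of -0.05; 1 was lower in mCK-hLPL (2.86%) and 2 in WT (5.71%). Mios, a subunit of the GATOR2 complex that relays amino acids to mTORC1, fell by 0.32 (edgeR adjusted p = 6.92e-05). Flcn, folliculin, which acts on the Rag proteins at the lysosome, fell by 0.35 (adjusted p = 0.00165), and Sesn1, a sestrin that inhibits GATOR2, fell by 0.49 (adjusted p = 0.00893). Nprl3, a subunit of the inhibitory GATOR1 complex, rose by 0.23 (adjusted p = 0.0109).

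In the lists of the lysosome itself, the shares called higher were near that of all genes. Of 46 lysosomal hydrolase and membrane genes, 6 rose (13%, against 10.7% of all genes) and 1 fell (2.17%, against 9.98%), with a median of 0.10; 0 were called in mCK-hLPL and 1 was lower in WT. Sgsh, Idua and Gla, hydrolases of sulfated sugars and glycolipids, rose by 0.29, 0.31 and 0.29 (edgeR adjusted p = 0.00816, 0.024 and 0.0248), and Mcoln1, a calcium channel of the lysosomal membrane, fell by 0.19 (adjusted p = 0.0087). Of 19 genes of the vacuolar proton pump, which acidifies the lysosome, 3 rose (15.8%) and 1 fell (5.26%), with a median of 0.04; 1 rose and 1 fell in mCK-hLPL and none in WT. Atp6v1a, Atp6v1b2 and Atp6v0a2 rose by 0.27, 0.16 and 0.13, and Atp6v1d fell by 0.33 (adjusted p = 0.00933, 0.012, 0.0394 and 0.000883 in that order). Macrophages are rich in lysosomes, and the summed level of 10 macrophage markers was 152 to 316 CPM in mCK-hLPL_REL, 92.9 to 228 in mCK-hLPL_WLM, 140 to 218 in WT_REL and 71.9 to 262 in WT_WLM. Of these markers 1 rose and none fell averaged over genotypes, the median log2 difference was 0.33, and none was at 0 in every library of a group; Cd68 is in both this list and the lysosomal one. Their part in the lysosomal lists was not tested. No gene of the 5 lists was called in any genotype comparison or in the interaction by edgeR.

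**Figure D5:**
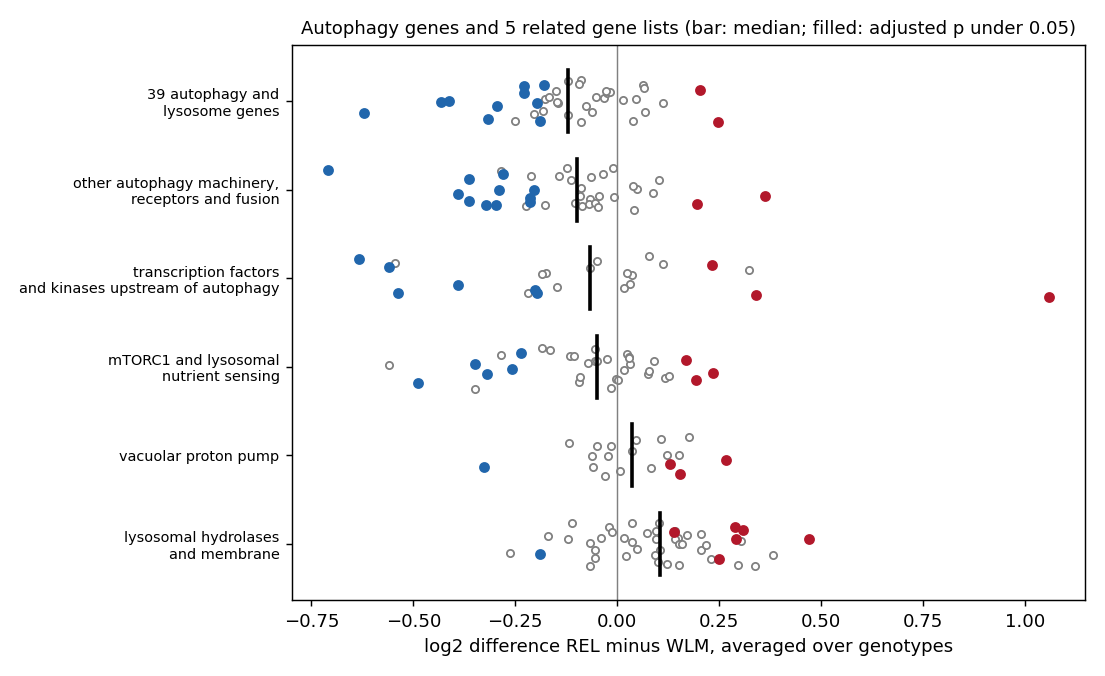
Log2 difference REL minus WLM averaged over the genotypes for the 39 members and for the genes of 5 related lists, 1 point per gene, with a bar at each median. Blue points fell and red points rose at an adjusted p under 0.05. The medians of the members (-0.12) and of the other autophagy genes (-0.10) lie left of 0, and that of the lysosomal hydrolases (0.10) lies right of it.

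Some member rows share genome sequence with a neighbour, and since the strand setting of the counting is not given, reads of the pair cannot be told apart. Mrnip, beside Sqstm1, averaged 3.39 CPM in mCK-hLPL_REL, 2.83 in mCK-hLPL_WLM, 3.31 in WT_REL and 2.24 in WT_WLM. Kri1, beside Atg4d, averaged 6.91 CPM in mCK-hLPL_REL, 7.41 in mCK-hLPL_WLM, 7.02 in WT_REL and 7.72 in WT_WLM. Zcchc14, beside Map1lc3b, averaged 19.8 CPM in mCK-hLPL_REL, 21.3 in mCK-hLPL_WLM, 21.2 in WT_REL and 22.4 in WT_WLM. Each of these partners was counted at a lower level than the member beside it in every group. The pseudogene Bnip3l-ps averaged at most 0.0594 CPM in a group. Partners that overlap some uncalled members, such as Cntd1 for Becn1 and Grtp1 for Lamp1, were not examined.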

How the data were processed

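RNA of 19 gastrocnemius samples was sequenced after column isolation and NuGEN mRNA library preparation, per the labels. The authors deposited 1 table of whole-number counts per gene symbol and library, which were not scaled. The submitters' processing notes list Salmon 0.14.2 and DESeq2 1.28.1, and mm10 and GRCm38 as builds. The annotation, the strand setting and the step that used each tool were not given in the sources used here, so the deposited counts may be rounded estimates. A spreadsheet had turned 24 symbols into dates (0.063% of counts), and 19516 rows had no count. In 2 cases a WT_REL column has another number than the sample titles; these libraries are called A and B.

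Genes were filtered with edgeR 4.0.16 filterByExpr in R 4.3.3 (minimum count 10, minimum total count 15), scaled with TMM factors and fitted with glmQLFit and glmQLFTest as 4 group means from all 19 libraries. Two-sided p-values were adjusted by Benjamini-Hochberg over 17028 genes within each contrast, with a threshold of 0.05. The SE is the absolute log2 difference over the square root of F. CPM used TMM-scaled library sizes and is given as mean ± SD. The averaged comparison is the mean of the differences in both genotypes, or in both phases. Replicates of a group differed by more than sampling noise (smallest chi-square per degree of freedom 25.64 over 36 pairs). Coordinates are from GENCODE M21 on GRCm38, and promoters are from RefSeq on GRCm38.p6.

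The members and gene lists were chosen with earlier results of these data known. Values by library are given for each member called in any contrast, or of smallest p in a genotype contrast. From each list, the log2 difference and adjusted p are given for up to 4 called genes of smallest p. Other members are given by ranges, counts or single values within a family. The method was tested on simulated data. Alternatives were DESeq2 1.42.0, other scalings and filters, fits of the compared groups alone, a block by replicate number, and fits without each library in turn. Those without libraries high in lymph node or liver transcripts, or low in muscle transcripts, were chosen after the data were seen. No protein sequences were used here.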

Additional observations from a re-analysis of the deposited data

Results flagged for a closer look

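Among the 13 members with values given for single libraries, 52 sets of libraries (13 genes in 4 groups) were examined for a library far from the others of its group by Dixon's test, and 2 stood out. Chance marks about 1 in 20 groups, or 2.6 of 52.

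Ulk1 was at 64.4 CPM in mCK-hLPL_WLM 5, against 40.8 to 44.5 CPM in the other 4 libraries of that group; the gap was 0.844 of the whole range, above the critical value of 0.71. Sqstm1 was at 326 CPM in WT_REL A, against 275 to 281 CPM in the other 3; the gap was 0.878 of the range, above the critical value of 0.829. The averaged refeeding calls of both genes held without either library.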

How the results depend on the processing

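Over 24 values of single members (called members and those of smallest p in a genotype comparison) and 706 alternatives, 563 kept their direction and side of the threshold, 143 kept their direction and passed no longer, and 0 reversed. The values of genotype comparisons and the interaction were not called at first and passed under no alternative. They are among the 563 and say nothing of how firmly the calls held. The count of members called for refeeding in mCK-hLPL, 5, was 2 without the low-count filter, 9 with DESeq2, 2 with only the groups compared, 1 without the 3 libraries highest in lymph node transcripts, 8 without the 3 highest in liver transcripts and 1 without the 3 lowest in muscle transcripts. It was between 2 and 6 with single libraries left out: 2 without mCK-hLPL_WLM 2, 3 or 5 or mCK-hLPL_REL 3, and 3 without WT_REL 1 or mCK-hLPL_REL 2 or 5. The count in WT, 3, was between 2 and 4 with single libraries left out. The averaged count, 12, was 7 without the filter, 6 without the 3 libraries lowest in muscle transcripts, and between 8 and 12 with single libraries left out. The share of all genes called also differed between fits, and it is not set beside these counts. The moves are therefore no result about the members, and their cause was not tested. All counts between genotypes and for the interaction were 0 under every alternative run.

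Same-numbered libraries did not deviate together more than others (21 pairs, correlation -0.356 to 0.2, median -0.01, against -0.351 to 0.442, median -0.01, in 84 other pairs). With so few pairs, and only 2 numbered libraries in WT_REL, this cannot exclude a pairing by number. A replicate block on the 17 numbered libraries, which leaves 2 in WT_REL, gave 1 member in mCK-hLPL (Bnip3), 0 in WT and 4 averaged (Bnip3, Sqstm1, Tfeb and Atg12). The same 17 libraries without the block gave 5, 0 and 6. Shares of all genes are not set beside these counts either. Directions of the refeeding differences did not change with RLE or upper-quartile scaling; between genotypes, upper-quartile scaling turned the sign of Atg5 and Bnip3 in WLM, Pik3c3 in REL, Optn and Lamp2 averaged, and Gabarapl2 and Nbr1 in the interaction. Counting error was largest for Atg10, which had 157 counts in its lowest library.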
